A study of Mus musculus with 16 samples.

Results

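Broad H3K4me3 domains of quiescent muscle stem cells were the 610 longest of 13170 domains, all those that extended over 4000 bp or more. A domain was made by joining the deposited narrow H3K4me3 peaks that lay at most 1 kb apart, so the 610 domains were chosen by measured values, their length in the quiescent peak list. They made up 4.63% of the domains and held 13.6% of the bases under domains. The cells were muscle stem cells of skeletal muscle from C57BL/6 mice, in 2 states, quiescent (QSC) and activated (ASC), that share strain and tissue. Each group had 2 H3K4me3 and 2 H3K27me3 immunoprecipitates, each with its own input sample, and no other genotype or treatment is named in the labels. The means of isolation and activation, the age of the mice and any pooling of animals were not stated in the labels used here. A single pooled peak list stood for each mark and state, so no difference between the states had a replicate check, no test was possible, and read depth is unknown.

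Trimethylation of lysine 4 of histone H3 (H3K4me3) is laid down by the MLL/SET1 methyltransferases around transcription start sites and is usually confined to a short stretch there. At some genes it spreads far into the transcribed region, and such broad domains are known for their place at genes that define a cell type and at tumour suppressor genes. H3K27me3 is the repressive mark set by Polycomb repressive complex 2, and promoters can carry both marks. Satellite cells, the stem cells of skeletal muscle, rest in quiescence until injury, when they enter the cell cycle and form myoblasts.

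The label of the cells was checked against defining genes. Of 9 satellite cell markers, 8 lay in or within 1 kb of a broad domain in QSC: Pax7, Myf5, Cdh15, Itga7, Vcam1, Cxcr4, Sdc4 and Myod1. The domain at the remaining marker, the calcitonin receptor gene Calcr, was 3727 bp long. Over all protein-coding genes 3.03% had a broad domain. None of 17 endothelial and 20 immune markers had a broad domain, and 1 of 18 fibro-adipogenic (Tcf4), 1 of 13 pericyte (Notch3), 2 of 13 Schwann cell (Egr2 and Pmp22) and 1 of 7 adipocyte markers (Cebpa) did. These 4 lists lay between 5.56% and 15.4%, above the share of all genes, and rest on 1 or 2 genes each. Lists of 17 and 20 genes are too short for a count of none to differ from 3.03%. QSC domains of any length lay at 5 endothelial, 1 immune, 5 fibro-adipogenic, 9 pericyte, 7 Schwann cell and 2 adipocyte markers. Over all protein-coding genes 11916 of 21900 had one. Egr2 and Notch3 also belong to the immediate early and Notch lists used below. The Tcf4 entry is not the gene Tcf7l2, whose protein is also named TCF4. Tcf7l2 stood in the Wnt list and had a broad domain (4465 bp), so the fibro-adipogenic count is uncertain.

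The starts of 6 genes with a broad domain, chosen after their values were seen, illustrate the sequence before such starts. Each line gives the 250 bases before the start, on the strand of the gene, from the RefSeq table for GRCm38.p6, whose coordinates equal mm10. Capitals mark CG dinucleotides. The Pax7 domain was kept in ASC, those of Myf5 and Cdkn1b were longer, and those of Nr4a1, Cdh15 and Htra3 were shorter, as described below.
Pax7: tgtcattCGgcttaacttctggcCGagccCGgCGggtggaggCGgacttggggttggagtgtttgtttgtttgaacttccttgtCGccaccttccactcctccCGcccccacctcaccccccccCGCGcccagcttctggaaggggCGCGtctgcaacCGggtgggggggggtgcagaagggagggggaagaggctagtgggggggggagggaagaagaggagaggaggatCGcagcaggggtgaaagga
Myf5: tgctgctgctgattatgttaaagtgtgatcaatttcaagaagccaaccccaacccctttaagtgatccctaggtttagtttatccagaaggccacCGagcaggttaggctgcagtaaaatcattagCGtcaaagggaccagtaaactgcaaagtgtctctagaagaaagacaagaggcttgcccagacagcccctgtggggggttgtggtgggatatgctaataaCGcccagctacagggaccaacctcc
Cdkn1b: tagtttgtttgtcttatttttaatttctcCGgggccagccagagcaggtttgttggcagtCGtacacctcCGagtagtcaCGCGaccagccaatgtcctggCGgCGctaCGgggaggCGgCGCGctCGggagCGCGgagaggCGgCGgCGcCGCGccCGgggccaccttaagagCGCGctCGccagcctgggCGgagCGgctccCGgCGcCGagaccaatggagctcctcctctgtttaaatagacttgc
Nr4a1: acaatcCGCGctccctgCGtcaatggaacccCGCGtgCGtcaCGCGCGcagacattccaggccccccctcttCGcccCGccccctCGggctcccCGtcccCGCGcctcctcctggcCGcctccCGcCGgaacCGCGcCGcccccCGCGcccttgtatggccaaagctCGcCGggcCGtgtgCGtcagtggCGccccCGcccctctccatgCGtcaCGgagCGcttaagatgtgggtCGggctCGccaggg
Cdh15: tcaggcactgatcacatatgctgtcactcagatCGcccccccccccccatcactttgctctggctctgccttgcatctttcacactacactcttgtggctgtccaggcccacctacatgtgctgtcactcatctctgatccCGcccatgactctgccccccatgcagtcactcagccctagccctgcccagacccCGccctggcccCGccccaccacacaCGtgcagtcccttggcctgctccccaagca
Htra3: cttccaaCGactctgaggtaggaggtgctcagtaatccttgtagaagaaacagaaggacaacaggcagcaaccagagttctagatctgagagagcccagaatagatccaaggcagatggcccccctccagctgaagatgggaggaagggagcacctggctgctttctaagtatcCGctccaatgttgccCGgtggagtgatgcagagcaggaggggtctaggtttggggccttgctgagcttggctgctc
The stretches lie on mm10 at chr4:139832969-139833218 (minus strand) for Pax7, chr10:107486135-107486384 (minus) for Myf5, chr6:134920151-134920400 (plus) for Cdkn1b, chr15:101266596-101266845 (plus) for Nr4a1, chr8:122848124-122848373 (plus) for Cdh15 and chr5:35679781-35680030 (minus) for Htra3. They range from 3 CG dinucleotides at Myf5 and Htra3 to 28 at Cdkn1b and 34 at Nr4a1. The Cdh15 domain reached 139 bp upstream of the start, so its stretch lies only partly in the domain. The ratio of observed to expected CG was 1.08 at Cdkn1b and 1.05 at Nr4a1, 0.516 at Pax7, and 0.263, 0.202 and 0.164 at Cdh15, Myf5 and Htra3. A broad domain therefore lay over CG-rich and CG-poor starts alike, and in this small set the CG content did not follow the change in length.

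Over the 499 genes with a table entry and a start in a broad domain, the median observed to expected ratio was 0.78, against 0.77 for the 9154 genes with a start in any QSC domain and 0.54 for all 17492 promoters of the table. By class the median was 0.68 over 55 genes in shortened domains, 0.79 over 295 in kept and 0.78 over 149 in longer ones. It was 0.61 over 207 genes in shortened domains under 4000 bp, so the lower value was not particular to broad ones. A ratio above 0.6 was found at 61.8% of the starts in shortened domains, 78.6% in kept and 75.2% in longer ones. Short motifs of 5 factors or elements were counted on both strands of the 250 bases, none contained in another, and a match is a description of letters only. The SP/KLF core GGGCGG was present at 71.7% of starts in broad domains, 65% of starts in any QSC domain and 42.7% of all promoters. The RBPJ core TGGGAA was present at 16.6%, 19.7% and 20.9%, the E-box CAGCTG at 10.6%, 10.9% and 11.6%, the TATA box TATAAA at 8.62%, 5.32% and 12.4%, and the AP-1 motif TGANTCA at 3.81%, 3.38% and 6.18%. Of these, the SP/KLF core was the motif whose share in broad domains exceeded that in all promoters.

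The median length of the broad domains was 4864 bp, against 1651 bp for all QSC domains, and the longest reached 25532 bp. Most were close to the minimum, with 471 under 6000 bp, 122 from 6000 bp to under 10000 bp and 17 of 10000 bp or more. A total of 389 consisted of 1 peak as called, so most did not come from joining. This did not hold for the longest, since only 4 of the 17 of 10000 bp or more were 1 peak. From 6000 bp to under 10000 bp 62 of 122 were. The longest domain joined 7 peaks, and its length includes the gaps between them. Just inside the minimum lay the domains at Cpeb4 (4001 bp), Csmd1 (4001 bp), Dnm3os (4002 bp), Cxxc5 (4003 bp) and Kctd15 (4006 bp), and just outside it Plxdc2 (3992 bp), Klhl21 (3991 bp), Slc38a1 (3989 bp), Zbtb18 (3985 bp) and Irf2 (3984 bp). All 610 also overlapped peaks of the broad H3K4me3 lists of QSC and of ASC. The fold enrichment over background that the authors gave each peak, taken at the highest peak of a domain, had a median of 18.6 in the broad domains and 10.9 in all QSC domains.

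The longest of all broad domains lay on chromosome 15 between Wnt7b and Ppara (chr15:85664031-85689562, 25532 bp), 14211 bp from the long non-coding RNA gene Lncppara and 17041 bp from the hairpin of let-7c-2, with no gene start within 1 kb. Domains of the HoxC and HoxA clusters, which set position along the body and limb axes, followed at Hoxc11 and Hoxc10 (23875 bp) and at Hoxa9 and Hoxa10 (20338 bp). The domain of Pax7, the paired box factor that marks satellite cells, spanned 17118 bp at chr4:139819541-139836658. Then came Arhgef2, which encodes an activator of RhoA (16886 bp), the nuclear factor I gene Nfib (16579 bp), Kdm6b, which encodes an H3K27 demethylase (14580 bp), a further HoxC domain at Hoxc10 and Hoxc9 (13190 bp), a domain inside Aopep (12901 bp) and Neat1, the RNA scaffold of paraspeckles (12000 bp). In ASC, 5 of these 10 lay within 10% of their QSC length, Pax7 (16898 bp), Arhgef2 (15314 bp), Nfib (17498 bp), Kdm6b (14210 bp) and the Aopep domain (13297 bp). The chromosome 15 domain and the 3 Hox domains were the longer ones.

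To compare the states, the lengths of all ASC domains that overlapped a QSC domain by at least 1 bp were summed and divided by the QSC length. A ratio of 0.8 or less was called shortened, a ratio of at least the inverse of 0.8 longer, and values between kept. Of the 610 broad domains, 174 (28.5%) were longer, 352 (57.7%) kept and 81 (13.3%) shortened in ASC, and 3 (0.492%) had no ASC domain. Over all 13170 QSC domains, 65.8% were longer, 26% kept, 3.8% shortened and 4.37% without an ASC domain. The median log2 ratio was 0.16 for the broad domains, with quartiles of -0.04 and 0.35, and 0.52 for all domains. Since the domains were selected on their QSC length, these differences from all domains are a description and part of the choice. The classes refer to lengths as called. Divided by the median ratio of all domains, 33 broad domains were longer, 231 kept and 343 shortened, with a median log2 ratio of -0.37, so a kept domain lengthened less than the typical QSC domain. With the broad H3K4me3 lists in place of the narrow ones the median for domains of 4000 bp or more was -0.07.

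**Figure D1:**
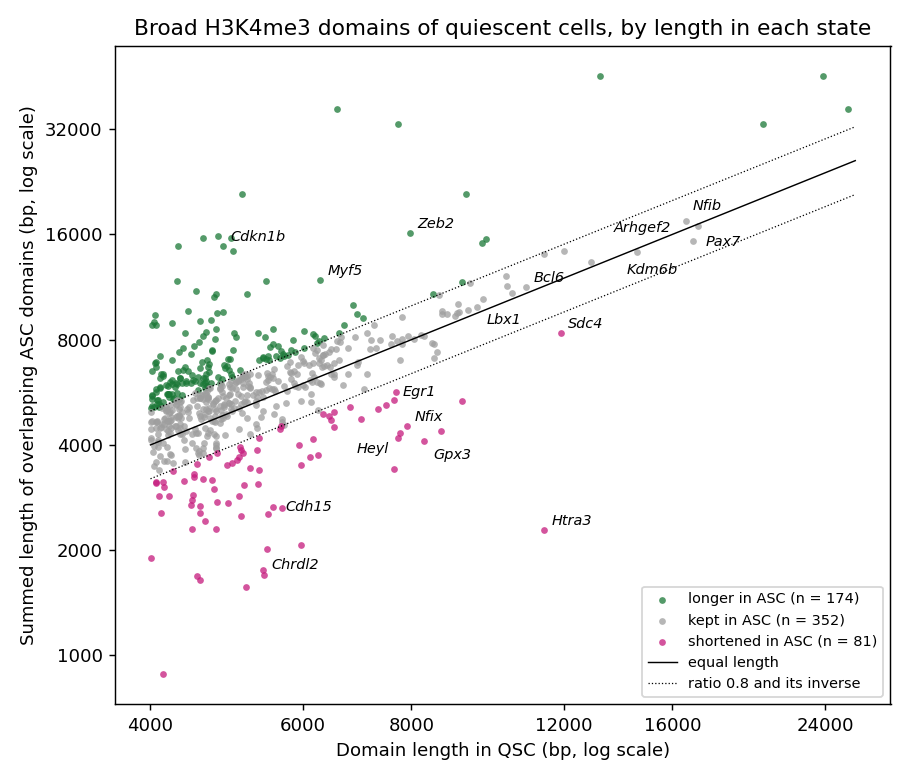
Length of each broad domain in QSC (horizontal, bp, log scale) against the summed length of the ASC domains that overlap it (vertical, bp, log scale), with points coloured by class; the 3 domains with no ASC domain are left out. The cloud of 352 kept domains follows the line of equal length from 4000 bp up to Pax7 at 17118 bp, and Htra3 stands apart below it at 11373 bp in QSC and 2285 bp in ASC.

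The ratio declined with QSC length across all domains. The QSC length is its denominator, so the decline is a description and is in part built in. Its median log2 value was 0.81 for domains under 1000 bp, 0.57 from 1000 to under 2000 bp, 0.44 from 2000 to under 4000 bp, 0.19 from 4000 to under 6000 bp, 0.07 from 6000 to under 10000 bp and 0.08 for 10000 bp or more. The values seen from the ASC side are a description too. ASC peaks covered more bases in total, 35427498 against 24421313 in QSC, and the part of this in the values below was not tested. The 1773 ASC domains of 4000 bp or more had a median log2 ratio of summed QSC length to ASC length of -0.57, close to -0.52 for all 14116 ASC domains, and 24.4% of them were kept, against 24.3% of all. As called, broad domains of QSC were mostly broad in ASC. Most broad ASC domains were shorter in QSC (73.7%), as were most ASC domains of any length (60.5%). In numbers, 524 of the 610 (85.9%) overlapped an ASC domain of 4000 bp or more, and 516 of the 1773 broad ASC domains (29.1%) overlapped a broad QSC domain. Against the 610 longest ASC domains, which were at least 5309 bp long, 359 QSC domains (58.9%) overlapped 350 ASC domains (57.4%). ASC domains covered 91.6% of the bases of the broad domains, against 94% of the bases of all QSC domains.

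**Figure D2:**
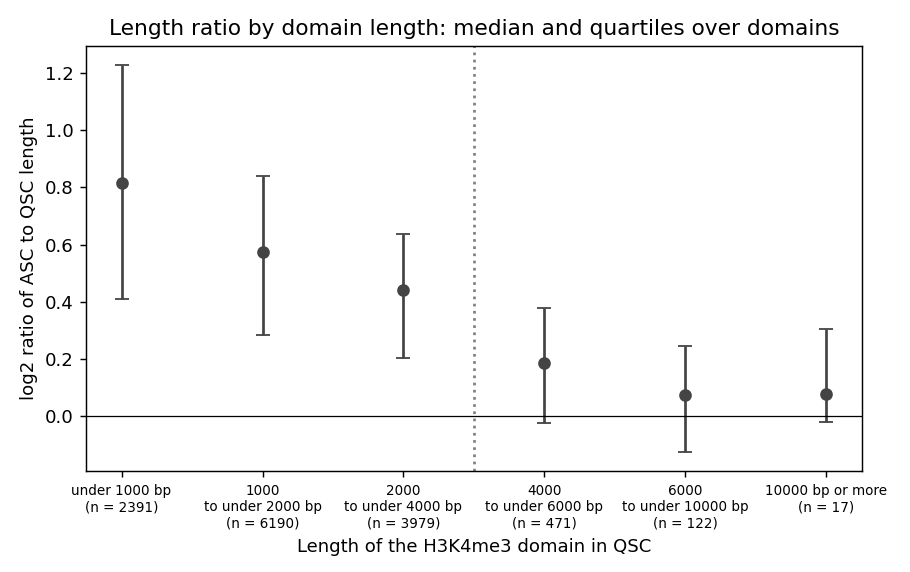
Median (points) and quartiles over domains (bars) of the log2 ratio of ASC to QSC domain length, for 6 classes of QSC length; the dotted line marks 4000 bp and the bars are spread between domains, not replicate error. Medians run from 0.81 in the shortest class to 0.07 and 0.08 in the longest classes.

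Positions of the ends were read for the 364 broad domains that held the start of a single protein-coding gene with a known strand. They extended a median of 1079 bp upstream and 3805 bp downstream of the start, and 329 of the 364 (90.4%) reached further downstream than upstream. The same was seen for 89.8% of 7483 such domains of any length, with medians of 518 and 1181 bp. Among 48 shortened domains with an ASC domain of their own, the upstream arm decreased by 323.5 bp (median) and the downstream arm decreased by 1491.5 bp, and the downstream change in bp was the greater in 44. Their downstream arm was also the longer to begin with (medians of 4156 and 816.5 bp), and over all domains the downstream change was the greater in 5633 of 7298. Among 81 longer domains the medians were 360 bp more upstream and 1266 bp more downstream, and among 216 kept domains 111 and 185 bp more.

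**Figure D3:**
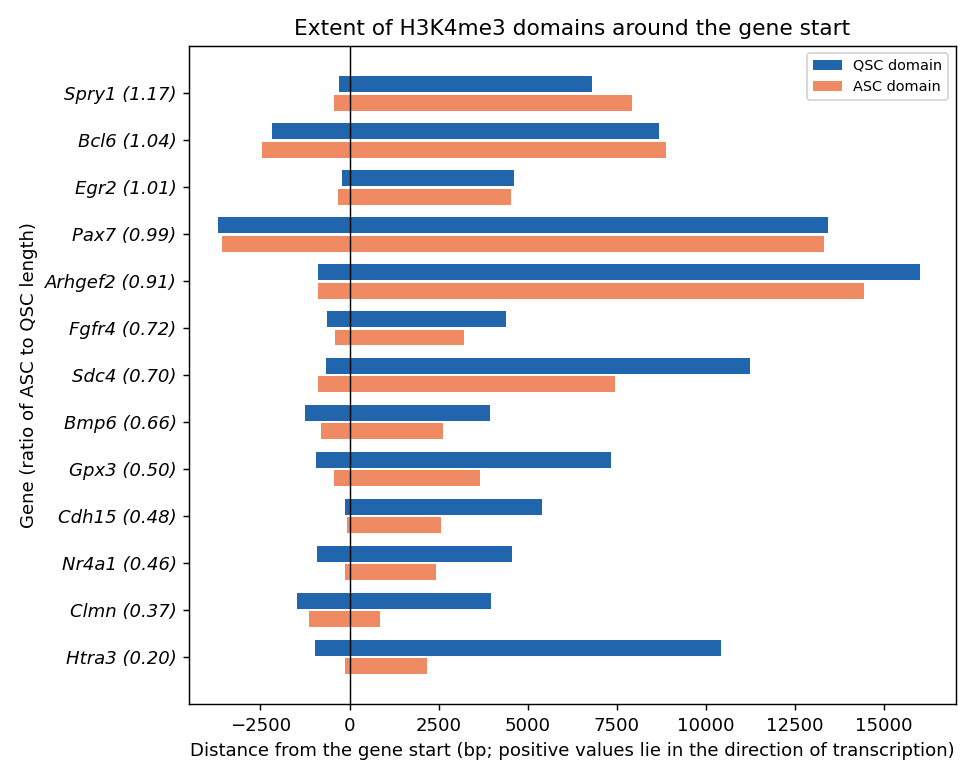
Extent of the QSC domain (blue) and of the ASC domain (orange) around the start of the gene, in bp, with downstream to the right, for 13 genes ordered by the ratio of ASC to QSC length given in brackets. Pax7, Egr2 and Bcl6 have nearly equal bars, and at Sdc4, Gpx3, Cdh15 and Htra3 the ASC bar ends nearer the start on the downstream side.

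Genes of quiescence and satellite cell identity formed a list of 36, of which all had a QSC domain and 23 (63.9%) a broad one. Over all protein-coding genes with a QSC domain, 664 of 11916 (5.57%) had a broad one, and of these 664 genes 197 (29.7%) were longer in ASC and 77 (11.6%) shortened, with a median log2 ratio of 0.18. Of the 23 genes, 3 were longer, 11 kept and 9 shortened, and the median log2 ratio was -0.02. The list and its genes were chosen with results of these data known, so the counts describe it.

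Among the shortened members of this list, Chrdl2, which encodes a chordin-like antagonist of bone morphogenetic proteins, went from 5413 bp in QSC to 1701 bp in ASC. Cdh15, which encodes the adhesion protein M-cadherin, went from 5537 to 2659 bp. Gpx3, which encodes a secreted glutathione peroxidase, went from 8271 to 4104 bp, and its highest ASC peak had a fold of 8.85, well below the median of 30.5 for the ASC peaks at broad domains. Sdc4, the gene of the heparan sulphate proteoglycan syndecan-4, went from 11900 to 8338 bp, the ligand gene Bmp6 from 5206 to 3428 bp, and the receptor gene Fgfr4 from 5033 to 3614 bp. Of these 6 genes, Sdc4 and Gpx3 still had more than 4000 bp in ASC and the other 4 did not. The collagen gene Col5a1 (4369 to 3149 bp), the SoxE factor gene Sox8 (6519 to 4983 bp) and the Notch target gene Heyl (7756 to 4316 bp) completed the 9.

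Several transcription factors of the list held their domains. Pax7 is described above, Foxo3 went from 5564 to 5722 bp and Foxo1 from 5558 to 6579 bp, both genes of forkhead factors that act in quiescence. Six4, a homeobox gene, went from 4082 to 4304 bp. Surface markers differed among themselves. Vcam1 (5018 to 5767 bp), Itga7 (6456 to 7524 bp) and the chemokine receptor gene Cxcr4 (4890 to 4895 bp) were kept, in contrast to Cdh15 and Sdc4. Spry1, an inhibitor of receptor tyrosine kinase signalling in quiescent satellite cells, was kept at 7102 and 8341 bp. Cdkn1b, which encodes the cell cycle inhibitor p27, had 4849 bp in QSC and lay in an ASC domain of 14786 bp that also took in other QSC domains, 3 in all.

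Of 27 myogenic regulators, 21 had a QSC domain and 7 a broad one (33.3% of the 21), of which 3 were longer, 4 kept and none shortened. Myf5, the early myogenic determination gene, went from 6277 to 11821 bp. Mef2d, a partner of the myogenic factors, went from 5317 to 8359 bp, and Eya1, a transcriptional coactivator gene, from 4060 to 8828 bp. At each of these 3 genes the ASC domain took in 2 QSC domains, so part of the ratio comes from joining. Myod1, the determination gene of activated cells, was already broad in QSC and was kept, at 5094 and 4951 bp. Id3, an inhibitor of the basic helix-loop-helix factors, and Msc were kept too (6219 to 6040 bp and 5519 to 5788 bp). Of 39 sarcomere and differentiated muscle genes, 9 had a QSC domain and none a broad one. The share over all protein-coding genes with a QSC domain was 5.57%, and 9 genes are too few to set against it.

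The Notch pathway keeps satellite cells quiescent through receptors, the DNA-binding protein RBPJ and the Hes and Hey repressors. Of its 30 genes, 8 had a broad domain, with 4 longer, 2 kept and 2 shortened. The ligand genes Dll1 (5336 to 7003 bp) and Jag1 (4320 to 5423 bp) and Rbpj (4401 to 6100 bp) were longer. Of the receptors, Notch1 was shortened (4521 to 3534 bp) just past the limit, with a ratio of 0.782, and Notch3 was kept. The target genes took 3 directions, with Hes1 longer (4357 to 7583 bp), Hey1 kept (5729 to 5273 bp) and Heyl shortened.

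Immediate early and stress response genes, which are switched on within minutes of a stimulus, were the list with the most broad domains. They numbered 28 of 39 genes with a QSC domain (71.8%), with 5 longer, 20 kept and 3 shortened, and a median log2 ratio of 0.08. The activator protein genes Fos (6274 to 6002 bp), Fosb (5969 to 5337 bp) and Junb (6392 to 6760 bp) were kept, and Jun was longer (5486 to 7010 bp). Jund was counted as kept through a domain at Iqcn (4625 to 4466 bp), within 1 kb of its start. The shortened genes were Nr4a1, an orphan nuclear receptor gene (5465 to 2538 bp), Maff, of a small Maf factor (5054 to 2855 bp), and the zinc finger factor gene Egr1 (7632 to 5393 bp). Their relatives Nr4a3 (6316 to 6689 bp), Egr2 and Egr3 (4964 to 5831 bp) were kept. Outside the list, and named after their values were seen, the circadian genes Per1 (5967 to 3506 bp) and Dbp (5302 to 3861 bp) were shortened, as were Cebpb (6419 to 4836 bp), Csrnp1 (6512 to 4486 bp), Mafk (7314 to 5082 bp) and Sik1 (5086 to 3868 bp).

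**Figure D4:**
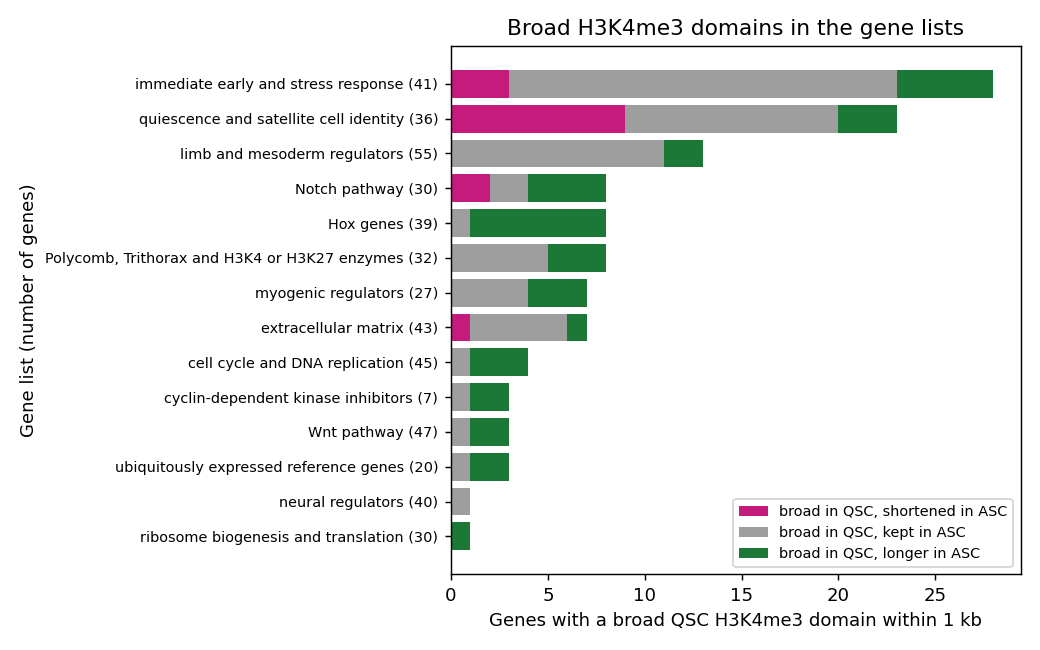
Number of genes of each list with a broad QSC domain in or within 1 kb of it, split by class in ASC, with the size of the list in brackets. The quiescence list has 9 shortened genes, the immediate early list 20 kept of 28, and the Hox, cell cycle and myogenic lists have none shortened.

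Limb and mesoderm regulators held their length. Of 38 with a QSC domain, 13 (34.2%) had a broad one, 11 kept and 2 longer, with a median log2 ratio of 0.06 and a median QSC length of 7978 bp. Bcl6, a transcriptional repressor gene (10857 to 11316 bp), Tshz3 (10445 to 10907 bp), Lbx1, the homeobox gene of migrating limb muscle precursors (9531 to 9898 bp), and Runx1 (7933 to 8220 bp) all lay within 10% of their QSC length. Zeb2, which encodes a zinc finger repressor, had 7978 bp in QSC and lay in an ASC domain of 16119 bp that took in 2 QSC domains. The 8 Hox genes with a broad domain lay in 5 domains, 7 genes in longer domains and Hoxc6 in a kept one (6287 to 5964 bp). Hoxc11, Hoxc10 and Hoxc9 came to lie in 1 ASC domain of 45438 bp, and Hoxa3, Hoxa7, Hoxa9 and Hoxa10 in 1 of 33096 bp. These genes share their ASC domains and are not separate observations.

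Genes of Polycomb and Trithorax proteins and of H3K4 or H3K27 enzymes were also among the broad genes. Of 31 with a QSC domain, 8 had a broad one, 5 kept and 3 longer. The H3K4 methyltransferase genes Kmt2a (4287 to 5986 bp), Kmt2c (4102 to 4475 bp), Kmt2d (5108 to 6019 bp) and Setd1b (10322 to 11417 bp) were of this group, with Kmt2a longer and the others kept. The Polycomb genes Pcgf2 (6334 to 8083 bp) and Ring1 (5165 to 10798 bp, in an ASC domain that took in 2 QSC domains) were longer and Jarid2 was kept (5611 to 6108 bp). Of 39 cell cycle genes with a QSC domain, 4 (10.3%) had a broad one, against 5.57% of all protein-coding genes with a QSC domain. They were Ccnd1 (6019 to 8490 bp), Cdk6 (4059 to 6894 bp) and E2f3 (4257 to 5446 bp), which were longer, and Ccnd3, which was kept (4326 to 4308 bp). Of 30 ribosome biogenesis genes 1 had a broad domain, Ubtf, which encodes a cofactor of RNA polymerase I (4910 to 7044 bp). Of 33 extracellular matrix genes with a QSC domain 7 had a broad one, 5 kept, 1 longer (Hspg2) and 1 shortened (Col5a1), with a median log2 ratio of 0.25. In the Wnt list Gsk3b (4380 to 6682 bp) and Tcf7l2 (4465 to 6327 bp) were longer and Fzd4 was kept (5047 to 6116 bp).

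The domain with the greatest shortening among those at a coding gene start that had an ASC domain was that of Htra3, the gene of a secreted serine protease, with 11373 bp in QSC at chr5:35669368-35680740 and 2285 bp in ASC, a ratio of 0.201. Tmem51 (5156 to 1574 bp), Vwa1, of a von Willebrand factor A domain matrix protein (5393 to 1754 bp), Clmn (5456 to 2011 bp) and Nppc, of C-type natriuretic peptide (4522 to 1687 bp), followed beside Chrdl2. Hmcn2, of the matrix protein hemicentin-2 (7634 to 3404 bp), Prelp, of a leucine-rich proteoglycan (5678 to 2632 bp), and Nr4a1 completed the lowest 10 among domains with a coding gene start, together with Bdkrb1. Bdkrb1, the gene of an inducible bradykinin receptor (4195 bp, fold 6.2), and 2 domains with no coding start inside, in the records of Slc39a14 (4629 bp, fold 4.49) and Nctc1 (5613 bp, fold 19.4), had no ASC narrow peak. The broad ASC H3K4me3 list still covered part or all of each of the lowest 10 domains with a coding gene start. The covered length ran from 3048 bp at Nppc to 8404 bp at Htra3, and Bdkrb1 and Prelp were covered in full. Shortened domains as a group had a median highest fold of 18.4 in QSC, like the 18.6 of kept and 18.8 of longer ones, and a median of 13.7 in ASC, against 29.6 and 36.4.

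The greatest ratios came from ASC domains that joined several QSC domains. All 10 coding members with the greatest ratio shared their ASC domain with at least 1 other QSC domain, as did 37 of the 174 longer domains. Beside the Hox domains and Cdkn1b these were both domains of the lamin A gene Lmna (4603 and 4955 bp, in an ASC domain of 15603 bp), the profilin gene Pfn1 (4782 to 15834 bp), Tbc1d17 with Akt1s1 (4296 to 11778 bp), the chaperone gene Hsp90ab1 (4519 to 11050 bp), the perlecan gene Hspg2 (4052 to 9417 bp) and Map7d1 (4760 to 10798 bp). Where QSC and ASC domains that overlap were joined and their summed lengths compared, an alternative chosen after seeing the data, the median log2 ratio was 0.15. Domains with 2 or more coding gene starts, 88 in all, included 36 longer (40.9%) and 3 shortened (3.41%), and the 462 with the start of 1 gene included 121 longer (26.2%) and 68 shortened (14.7%).

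H3K27me3 was not used to choose the domains. A domain was counted as marked where peaks of the broad H3K27me3 list covered at least 500 bp of it. In QSC 30 of the 610 (4.92%) were marked, against 7.59% of all QSC domains, and in ASC 80 (13.1%), against 13.7%. With the narrow H3K27me3 lists there were 9 (1.48%, against 1.84%) and 40 (6.56%, against 6.1%). In ASC these shares by count were near those of all domains, and the rise from QSC was seen over all domains too. A longer domain meets a fixed 500 bp more easily. By bases, the broad list covered 2.38% of the broad domains in QSC, against 5.43% of all QSC domains. In ASC it covered 7.21% of the bases of broad domains, again below the share over all domains. The narrow list gave 2.82% against 4.16% in ASC. By bases, H3K27me3 thus covered less of the broad domains than of all domains. Most of the marked domains gained the call, 54 in ASC only, 26 in both states and 4 in QSC only.

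The gain was unevenly spread over the classes of length. H3K27me3 in ASC only was found at 3 of 174 longer domains (1.72%), 31 of 352 kept (8.81%) and 20 of 81 shortened (24.7%), with 6.83% of all QSC domains. The narrow lists gave the same order, 1 (0.575%), 17 (4.83%) and 14 (17.3%), with 4.43% of all domains. Domains under 4000 bp showed it as well, with 290 of 8498 longer (3.41%), 407 of 3071 kept (13.3%) and 94 of 419 shortened (22.4%). The order was lost when H3K27me3 peaks were limited to a -log10 q of at least 5, with 3 longer, 3 kept and 1 shortened, and few calls remained at a fold of at least 3, with 2, 6 and 3. The median -log10 q of the broad H3K27me3 lists was 0.42 in QSC and 0.378 in ASC, so most of these peaks were weakly supported one by one, and 5.47 and 6.04 in the narrow lists. In shortened domains broad-list ASC H3K27me3 covered 16.3% of the bases still under an ASC H3K4me3 domain of joined narrow peaks. It covered 18.5% of the bases no longer under one. The narrow H3K27me3 list gave 7.38% and 5.04%, and in the 23 shortened domains marked in ASC the broad list gave 66.3% and 56.7%. The covered share was thus not higher in all measures on the bases outside ASC domains. Such bases can still lie under peaks of the broad ASC H3K4me3 list.

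**Figure D5:**
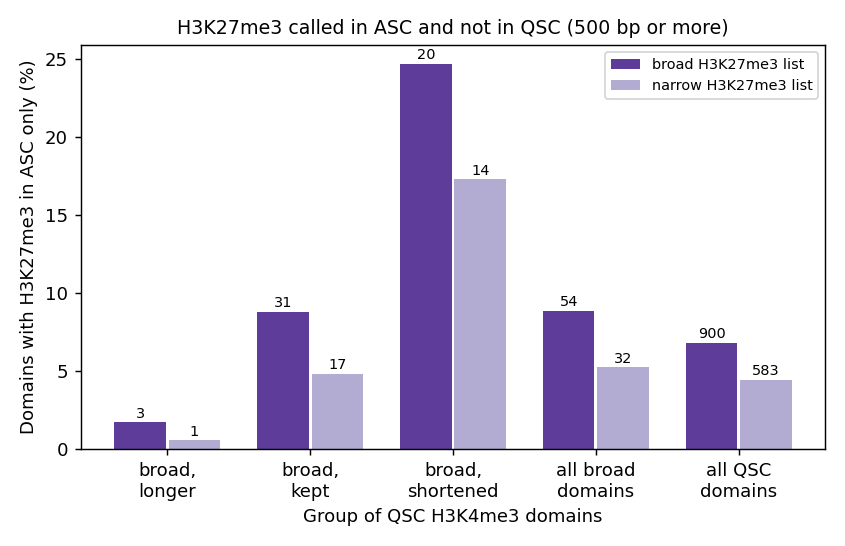
Share of domains with H3K27me3 over at least 500 bp in ASC and not in QSC (percent, bars from 0), by class of the broad domains and for all QSC domains, with the number of domains above each bar, from the broad and the narrow H3K27me3 lists. The shortened class is highest with both lists (24.7% and 17.3%) and the longer class lowest (1.72% and 0.575%).

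The genes with the most H3K27me3 gained were again led by the strongly shortened ones. At Htra3 the covered length went from 0 in QSC to 5605 bp in ASC, at Hmcn2 from 0 to 5519 bp and at Tmem51 from 0 to 5156 bp, its whole QSC domain. The sphingosine phosphate receptor gene S1pr3 (0 to 4884 bp) and the phosphatase gene Dusp8 (0 to 4458 bp) were shortened too. In contrast, Lbx1 (85 to 4713 bp), the adrenergic receptor gene Adrb1 (0 to 4600 bp), the start region shared by the basement membrane collagen genes Col4a1 and Col4a2 (0 to 4521 bp) and Unc45bos (427 to 4820 bp) gained H3K27me3 over a domain of kept length. In the narrow list Lbx1 had 0 bp in both states and Unc45bos went from 156 to 534 bp. Adrb1 had 1778 bp and the Col4a1 and Col4a2 region 3166 bp in the narrow ASC list. In the quiescence list, where no gene was marked in QSC, 7 of the 23 were marked in ASC: Chrdl2 (4141 bp), Col5a1 (3495 bp), Bmp6 (3451 bp), Tenm4 (2268 bp), Sox8 (2113 bp), Bmp4 (1905 bp) and Heyl (1475 bp). Of all 664 coding genes with a broad domain, 30 were marked in QSC and 80 in ASC. Col5a1, Tenm4 and Heyl had 0 bp in the narrow ASC list. Cdh15, Gpx3, Sdc4 and Fgfr4, whose domains were shortened as well, had 0 bp in either state.

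Of the 30 domains marked with H3K27me3 in QSC by the broad list, 9 were marked by the narrow list and 0 when broad-list peaks were limited to a -log10 q of at least 5. In the broad list H3K27me3 covered all 7058 bp of the domain at Tbx1 and all 5802 bp at Bcl11a, 4435 bp at Irx5, 4105 bp at Fgf9, 4001 bp at Csmd1, 3975 bp at En1, 3951 bp at Tbx3, 3829 bp at Sim2 and 3200 bp at Mab21l1. These 9 were marked in ASC over 3778 to 7058 bp. In the narrow list Csmd1, En1, Sim2 and Mab21l1 had 0 bp in QSC. Cdk6, which encodes a G1 cyclin-dependent kinase, was the exception among the 10 with the most H3K27me3 in QSC, with 4059 bp in QSC and 0 in ASC while its H3K4me3 domain lengthened. The next losses were smaller, at the stress response gene Gadd45b (1231 to 0 bp) and the ephrin gene Efna5 (2808 to 1731 bp). Neither was a loss in the narrow list, which had 0 bp at Gadd45b in both states and 447 bp in QSC and 704 bp in ASC at Efna5.

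Most broad domains lay at coding genes. The start of a protein-coding gene, or either end of its record where no strand was given, lay inside or within 1 kb of 561 of the 610 (92%), against 82.9% of all QSC domains. Longer domains have more room to meet a start. A total of 44 domains had no coding gene end within 1 kb, of which 27 lay inside a coding gene record and 18 overlapped a long non-coding RNA record. Beside those already given, the longest were inside Nfia (9748 to 15515 bp), at a further site in Aopep (9138 to 11702 bp), at Malat1 (9071 to 9573 bp), at chr3:138063878-138072914 (9037 to 9527 bp), at chr8:84197124-84204829, 3689 bp from the hairpin of miR-23a (7706 to 7951 bp), and inside Pde4d (7472 to 5211 bp). Among the 44, 12 were longer, 23 kept and 7 shortened, and 2 had no ASC domain.

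MicroRNA hairpins lay inside 19 of the broad domains (3.11%), 23 hairpins in all, against 0.752% of all QSC domains. Per megabase of domain this was 6.85 in broad and 4.41 in all domains. The mature sequences below, from RefSeq, are shown for pairs that share a seed (bases 2 to 8, in capitals) although they come from different hairpins.
miR-196a-5p: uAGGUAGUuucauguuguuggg
miR-196b-5p: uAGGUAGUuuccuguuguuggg
miR-195a-5p: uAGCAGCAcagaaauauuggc
miR-497a-5p: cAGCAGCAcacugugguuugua
The seed AGGUAGU belongs to hairpins in the HoxC domain at Hoxc10 and Hoxc9 (miR-196a) and in the HoxA domain at Hoxa9 and Hoxa10 (miR-196b), both longer in ASC. The seed AGCAGCA belongs to 2 neighbouring hairpins in the Rnasek domain on chromosome 11, which was kept (8441 to 7840 bp). A further hairpin, that of miR-22, lay in the domain of its host transcript Mir22hg, which was shortened (4895 to 3501 bp), and that of miR-125b-1 in a domain that was longer (4697 to 9116 bp).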

How the data were processed

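ChIP-seq libraries (ChIPmentation, paired reads, per the labels' protocols) of 16 samples, 8 immunoprecipitates and 8 inputs, were grouped by title. The submitters' processing notes name MACS2 2.1.1, Bowtie2 2.3.2, Trimmomatic 0.36, Picard 2.9.2, bedtools 2.26.0, SAMtools 1.3, bcl2fastq 2.19 and the build mm10, without settings. The authors deposited 8 peak lists, narrow and broad for each of 4 groups. Since replicates of a group share their lists in the labels, each was treated as pooled. Per peak, the deposited values are a fold over background (a ratio) and -log10 p and q against that background. Signal tracks were not analysed here.

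Peaks were joined over gaps of up to 1000 bp and compared by overlap of at least 1 bp with Python 3.11.15, pandas 2.3.3 and numpy 2.4.6, and the joining was checked against bedtools 2.31.1 and on simulated intervals. Gene starts came from RefSeq GRCm38.p6: stranded starts for 17492 of 21900 coding genes and both record ends for the other 4408. No test was run. The domains and 21 gene lists (619 symbols, all matched) were chosen with earlier results of these data known. Genes were named by rule: the 10 longest domains, the 10 lowest and 10 highest ratios among coding members, the 10 with most H3K27me3 in QSC, with most gain and most loss, list members, the 10 longest without a gene end, and those at the length limit; provisional symbols were left out. Some genes that this rule selects are not reported here. Further genes were picked with their values in view. Alternatives were other gaps, peak filters, lists, length minimums, ratio limits, overlaps and windows.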

Additional observations from a re-analysis of the deposited data

How the results depend on the processing

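Of 79 alternatives, 42 left the result within its limits, 35 moved it and 2 reversed its sign. Within limits does not mean unchanged, since the limits for a count were wide. A gap of 500 bp gave 575 domains with 72 shortened, and a gap of 2 kb 692 with 105 shortened. H3K4me3 peaks limited to a -log10 q of 5 or more gave 591 domains with 72 shortened, and to a fold of 3 or more 605 with 80. The median log2 ratio was 0.16 in each. The cause of these changes and of those below was not tested. Equal numbers of peaks gave a median log2 ratio of 0.15, and equal covered bases 0.11, with 81 domains lacking an ASC domain instead of 3 and left out of that median. The broad H3K4me3 lists, of which the QSC list held 184538 peaks, gave 9098 domains, 1595 longer, 3158 kept, 2321 shortened, 2024 without an ASC domain and a reversed median of -0.07. A minimum of 3000 bp gave 1477 domains, 622 longer, 728 kept, median 0.26, and 82 and 175 with H3K27me3 in QSC and ASC. A minimum of 6000 bp gave 139 domains, 25 longer, 91 kept, 23 shortened, median 0.08, and 5 and 19 with H3K27me3. Ratio limits of 0.5 and 2 gave 24 longer, 566 kept and 17 shortened, and limits of 0.9 and 1.1 gave 326, 159 and 122. With H3K27me3 peaks from the narrow list 9 and 40 domains were marked in QSC and ASC, with peaks limited to a -log10 q of 5 or more 0 and 7, and to a fold of 3 or more 4 and 15. Chosen after seeing the data were the ratio divided by the median of all domains (33 longer, 231 kept, 343 shortened, reversed median -0.37) and joined overlapping domains (median 0.15). No paired analysis was possible because each state and mark has 1 pooled peak list without replicate numbers; for the same reason no replicate could be left out. Read depth is unknown, so its effect on domain length was not tested.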

Other observations

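The X chromosome held few broad domains in quiescent cells. Of 385 QSC domains on X, 2 (0.519%) were 4000 bp or longer, against 608 of 12781 (4.76%) on the autosomes. Domains on X had a median length of 1219 bp and a median highest fold of 7.26, against 1665 bp and 10.9 on the autosomes. In ASC 20 of 433 X domains (4.62%) reached 4000 bp, and no autosome had a share below 9.98%. The labels do not state the sex of the mice, and its part in these values was not tested. Among autosomes the share in QSC was lowest on chromosomes 2 (23 of 1049) and 5 (22 of 817) and highest on chromosome 10 (43 of 683).

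Hairpins of microRNAs also lay near broad domains, at genes and away from them. Within 20 kb of a hairpin were 44 of all 610 broad domains (7.21%), against 699 of all QSC domains (5.31%). This set of 44 is not the set of 44 domains with no coding gene end. Those with no coding gene end within 1 kb included the longest domain of all, near let-7c-2, and the domain near miR-23a on chromosome 8. The second Aopep domain, 19815 bp from miR-23b, was another. A second domain on chromosome 15 (6557 bp) lay in the same ASC domain of 36575 bp as the longest one.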
